A study of Mus musculus with 12 samples.

Results

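The replication-dependent histone genes are the gene family from which the cell makes the bulk of its chromatin protein while it copies its DNA. They were chosen here by name, as the protein-coding genes whose symbol starts with H1f, H2ac, H2bc, H3c or H4c and a digit, or with Hist, a digit from 1 to 4 and h. The rule found 68 genes among 55487 genes in the count table, of which 21936 were protein-coding. By protein class, 10 were linker histones (H1), 17 were H2A, 17 were H2B, 12 were H3 and 12 were H4 genes. The name takes in 7 genes that are not S-phase genes of ordinary body cells: H1f0 and H1f10, linker histones made outside S phase, H1f8, the linker histone of the oocyte, and H1f6, H1f7, H2ac1 and H2bc1, histones of the testis. The other 61 are called the cluster genes below.

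Total RNA was sequenced from 12 whole lungs of miR-30a -/- mice on the C57BL/6J background, taken at postnatal day (PND) 21. All 4 groups carried the CRISPR deletion of miR-30a, a microRNA. The groups were room-air males (animals 1, 4 and 5), room-air females (animals 2, 5 and 6), males exposed to hyperoxia at 95% FiO2 from PND 1 to PND 5 (animals 1, 2 and 3) and females exposed in the same way (animals 2, 4 and 5), with 3 lungs in each. Pups of several litters were pooled before they were divided between exposures, the deletion was present in every cell of the body, and a whole lung mixes many cell types, so that fewer dividing cells and less histone mRNA per cell cannot be told apart. No wild-type lung was analysed here.

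Histones H2A, H2B, H3 and H4 form the core around which DNA is wrapped, and linker histone H1 binds where the DNA enters and leaves that core. A dividing cell needs a new set for each copied genome, and its histone genes are transcribed together in S phase from a few tight clusters with the coactivator NPAT. Their mRNAs carry no poly(A) tail. They end just after a short stem-loop, which the stem-loop binding protein SLBP holds and through which the mRNA is processed, translated and destroyed when DNA synthesis stops. A library made from total RNA, as here, does not by itself select for poly(A) tails and can therefore hold these mRNAs. In the young lung, dividing cells are the known source of this RNA, whereas H1f0 is known to accumulate in cells that have stopped dividing.

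The genes sat in 2 main clusters. On chromosome 13 lay 54 of the 68, between positions 21715763 and 23934851 of mm10 (GRCm38), a stretch of 2.22 Mb, and on chromosome 3 lay 10 more within 0.05 Mb (96219865 to 96270132). The remaining 4 were H1f10 and H1f8 on chromosome 6 and H1f0 and H1f7 on chromosome 15. In the GENCODE M21 gene models, 62 of 68 had a single exon and so no intron.

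The stem-loop was searched for as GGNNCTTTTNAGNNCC in the annotated transcripts, on the sense strand only. It was present in 41 of the 68 genes, 40 of them among the 61 cluster genes, whereas 0.355% of all 21951 protein-coding genes with a transcript held it (78 genes). It began between 21 and 58 bases after the stop codon. The loops below, read from GENCODE M21 transcripts as DNA letters with the 16 bases of the stem-loop in capitals, are those of genes followed through the results and show how the stem differs between classes.
H4c4: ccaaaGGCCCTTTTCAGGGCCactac
H4c8: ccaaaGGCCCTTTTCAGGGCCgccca
H4c14: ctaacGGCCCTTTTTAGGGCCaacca
H1f2: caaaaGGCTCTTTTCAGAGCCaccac
H2bc8: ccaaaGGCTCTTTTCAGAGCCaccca
H2bc11: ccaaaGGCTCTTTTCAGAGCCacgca
H3c3: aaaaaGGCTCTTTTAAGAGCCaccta
H3c6: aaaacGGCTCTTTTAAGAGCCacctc
H2ac8: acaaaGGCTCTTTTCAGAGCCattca
H2ac20: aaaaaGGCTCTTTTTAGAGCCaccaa
All 10 H4 genes with the motif had a stem starting GGCC or GGTC, whereas the 31 others had GGCT. The form seen in H1f2, H2bc8, H2bc11 and H2ac8 was shared by 24 genes. H1f0, H1f10, H1f8, H1f7, H2ac1 and H2bc1 did not hold these letters, and neither did 21 cluster genes. Among the latter, the models of H1f5 and H3c11 end before a loop. Others have long models without these letters, such as H2bc21 with 2620 exon bases for 378 coding bases. Some models ran far past the loop, by 4884 bases in H1f3, 2010 in H2ac6 and 1861 in H2bc6, which lowers a level given per length where few reads lie in that part.

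A promoter sequence from RefSeq (GRCm38.p6, 250 bases before to 50 after the start) could be matched for 54 genes, 47 of them cluster genes. The motifs searched, on both strands, were the CCAAT box CCAAT, the TATA box TATAAA and the octamer ATTTGCAT, which the factor Oct-1 is known to bind in H2B promoters. Of the 47 cluster genes, 41 (87.2%) held CCAAT, against 37.92% of 27025 promoters of the same length. TATAAA was found in 27 (57.4%) against 14.16%, and the octamer in 10 (21.3%) against 1.75%. By class, CCAAT was in all 38 promoters of H1, H2A, H2B and H3 genes and in 3 of 9 H4 promoters, and the octamer was in 5 of 13 H2A and 5 of 11 H2B promoters and in none of the H1, H3 and H4 cluster promoters. H2ac8 and H2bc8 start next to each other on opposite strands, so such a pair shares promoter sequence. The promoters of H2bc8, with all 3 motifs, of H3c3, with several CCAAT boxes, and of H1f0, with none of the 3, are given below to show the contrast, with matches in capitals (ATTGG is CCAAT on the other strand) and the strand of the gene in brackets.
H2bc8 promoter, chr13:23571150-23571449 (plus): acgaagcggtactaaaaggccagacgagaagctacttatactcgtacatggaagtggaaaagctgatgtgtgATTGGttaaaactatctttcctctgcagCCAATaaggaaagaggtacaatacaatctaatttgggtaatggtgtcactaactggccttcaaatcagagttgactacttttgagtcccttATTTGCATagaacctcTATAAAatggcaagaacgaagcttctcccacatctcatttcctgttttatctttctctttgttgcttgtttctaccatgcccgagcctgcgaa
H3c3 promoter, chr13:23745472-23745771 (minus): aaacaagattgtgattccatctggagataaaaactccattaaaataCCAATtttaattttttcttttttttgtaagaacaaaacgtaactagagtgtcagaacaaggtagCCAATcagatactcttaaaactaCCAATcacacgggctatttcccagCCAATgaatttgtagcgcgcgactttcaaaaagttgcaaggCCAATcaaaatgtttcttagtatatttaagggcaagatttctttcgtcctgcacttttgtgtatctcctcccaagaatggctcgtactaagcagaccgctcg
H1f0 promoter, chr15:79027962-79028261 (plus): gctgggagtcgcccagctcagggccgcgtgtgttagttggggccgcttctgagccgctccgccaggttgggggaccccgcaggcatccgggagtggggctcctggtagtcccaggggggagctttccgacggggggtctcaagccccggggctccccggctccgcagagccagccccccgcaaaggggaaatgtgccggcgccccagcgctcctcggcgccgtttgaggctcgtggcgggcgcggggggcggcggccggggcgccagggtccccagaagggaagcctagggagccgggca
A match to these letters is a description and not a measured binding site.

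The copies are close to identical, which limits what a count can say of any one of them. All 12 H4 genes encode 1 protein of 103 residues, from 11 different coding sequences that were 88.0 to 100% identical. Of the 12 H3 genes, 7 share 1 protein (H3c2, H3c3, H3c4, H3c6, H3c7, H3c13 and H3c15) and 4 share another (H3c1, H3c8, H3c10 and H3c11). Of the 17 H2A genes, 9 share 1 protein, and the largest H2B group has 4 genes. The 10 linker histones all differ. The median identity of coding sequences of one length was 97.4% in H2A, 97.2% in H2B, 97.5% in H3 and 94.7% in H4. Each transcript was therefore cut into every window of 50 bases, and a window was called unique when it occurred in no other annotated gene on either strand. The median share of unique windows was 98.88% in H1, 60.06% in H4, 50.26% in H2B, 38.02% in H3 and 21.1% in H2A, and 12 genes had less than 10%. A second annotated gene that overlaps the same locus, as many H2A genes have, also lowers this share.

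In 6 genes (H2ac18, H2ac19, H3c13, H3c14, H2bc18 and Hist1h2ap) the table held 0 counts in every lung, and Hist1h2bq, Hist1h2br and Hist1h2ao held 1, 2 and 3 counts over all 12 lungs. Where the reads of a gene can be counted, a count of 0 allows a level of up to 0.191 to 0.327 CPM (the usual library-scaled count), depending on the lung (3 counts). It sets no such limit for a gene without unique windows if reads with several positions were left out. The unique share of the first 5 genes named in this paragraph was 0%, and that of the other 4 was between 2.68 and 11.3%, as the plot of counts against unique sequence shows. How reads with several equally good positions were counted is not given in the sources used here, so whether these genes were silent was not tested. Low uniqueness did not by itself go with 0 counts, since H3c10 at 6.08% had a mean of 37.58 counts per lung and H3c11 at 12.43% had 67.83. H1f4 and H2bc6 share exon sequence on the same strand, and their counts cannot be fully told apart.

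**Figure D1:**
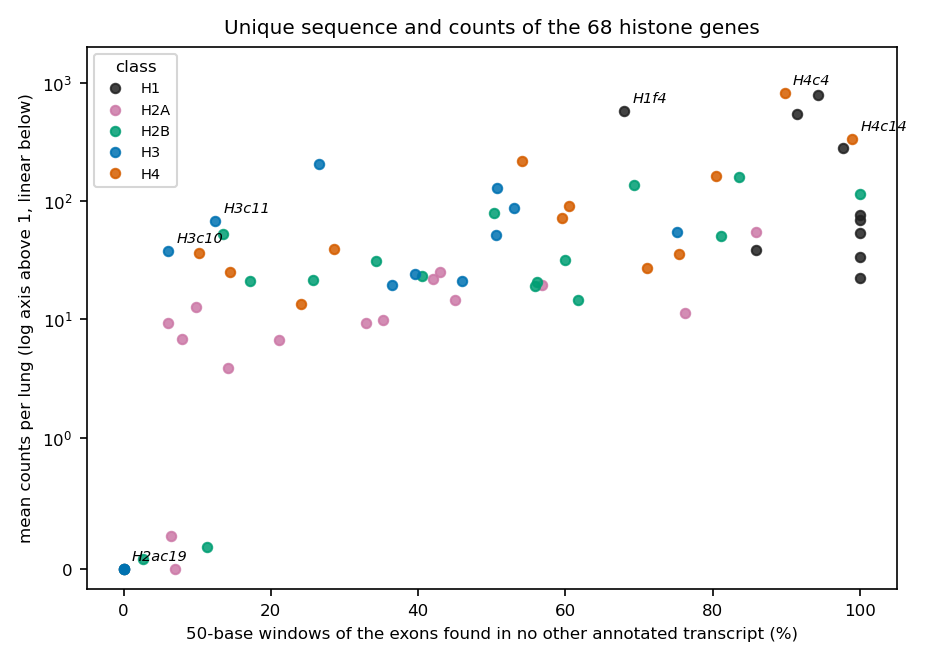
Share of 50-base windows found in no other annotated gene (x axis, percent) against mean counts per lung (y axis, logarithmic above 1 and linear below) for the 68 histone genes, 1 point per gene, coloured by class. All genes at or near 0 counts have at most 11.3% unique windows, while genes with as little unique sequence, such as H3c10, still have a mean of 37.58 counts.

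The libraries held 8763033 to 16741694 counts. Female lungs had 8834 to 27296 counts of Xist and 0 of the Y-linked Ddx3y, males had 148 to 210 and 270 to 715, so the labelled sexes held in all 12. The Mir30a row was at 0 in every lung, but these libraries do not measure mature microRNAs and all groups carry the deletion, so it checks no group label. Of the lung markers, 7 of 7 were detected in every lung. Counts on olfactory and vomeronasal receptor genes, which the lung is not expected to use and which stand here for background reads, took 0.453 to 1.04% of a library, least in room-air female 5 and most in hyperoxia-exposed male 2, the library with the fewest counts. The row Gm10800 alone took 6.04 to 23.8% of the counts, again with the lowest and highest share in these 2 lungs. Room-air male 1 stood apart by skeletal muscle markers, whose 6 genes summed to 1650 CPM against 54 to 86.5 in the other 11 lungs.

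Levels are given as CPM of libraries scaled by their upper quartile, and between genes as RPKM, the same per kilobase of exon. Over the 12 lungs, H4c4 had the highest mean RPKM of all 68 (56.5), followed by H4c8 (36.4), H1f0 (30), H1f2 (28), H1f4 (23.6), H3c6 (19.4) and H4c6 (18.5). The leading genes of the other classes were H3c11 (13.1 RPKM) beside H3c6, H2bc15 (11.1) and H2bc8 (9.99) in H2B, and H2ac15 (5.19) and H2ac4 (3.6) in H2A. Among the 56 genes with enough counts to be tested, the mean level ran from 2.73 to 56.5 RPKM in H4, from 1.55 to 19.4 in H3, from 2.01 to 30 in H1, from 2.25 to 11.1 in H2B and from 1.32 to 5.19 in H2A, the class with the least unique sequence. The testis and oocyte genes were not at 0. H1f6, H2ac1, H2bc1, H1f7 and H1f8 stood at 2.01 to 4.68 RPKM, and the reads expected from the receptor genes for their exon length came to between 25.6 and 60.5% of their counts, against 2.06% in H4c4 and 3.87% in H1f0.

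**Figure D2:**
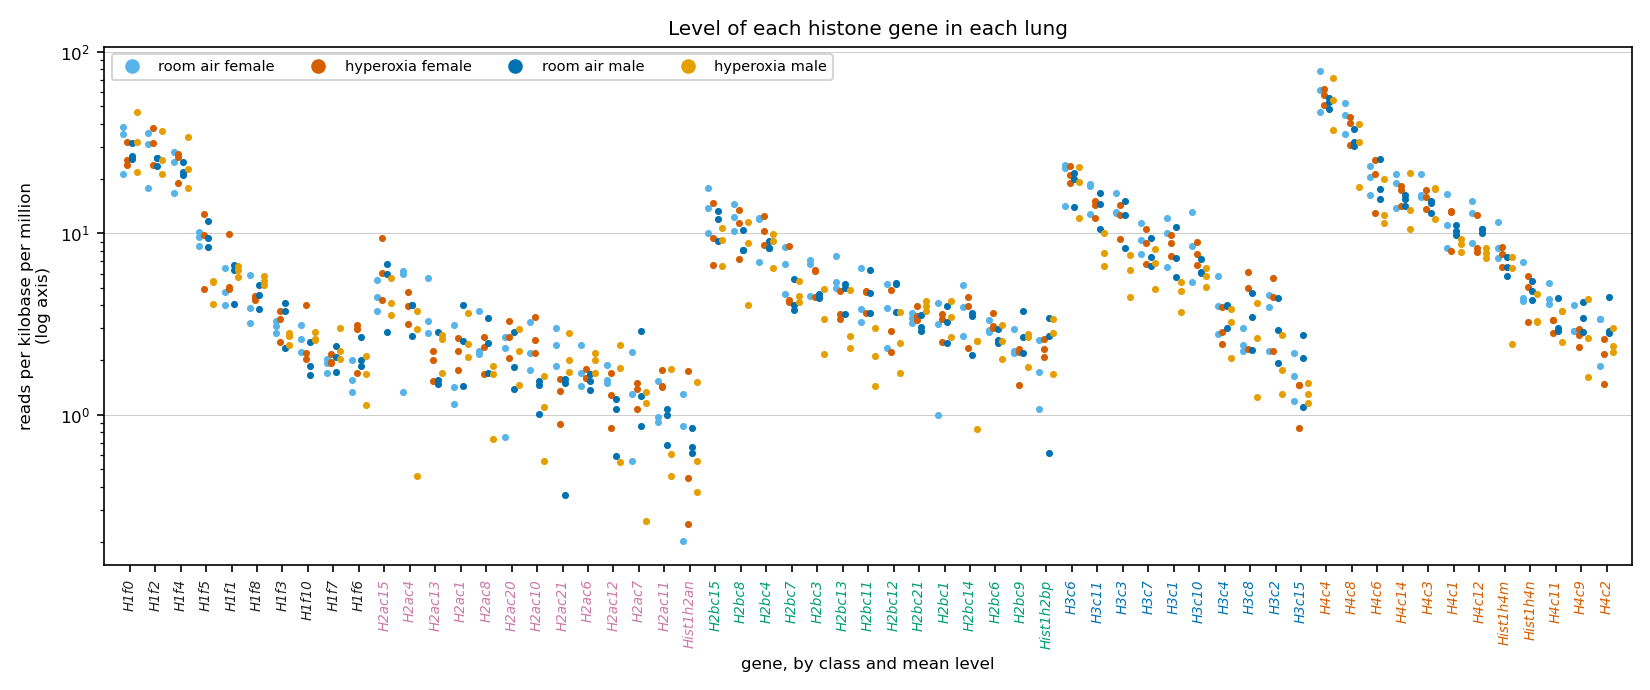
Level of each histone gene with a mean of at least 0.1 RPKM in each of the 12 lungs (y axis, RPKM, logarithmic), ordered by class and mean level on the x axis and coloured by group. Within H4 the mean level falls from 56.5 RPKM in H4c4 to 2.73 in H4c2, while the 4 groups of lungs overlap in most genes.

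The most abundant histone mRNAs differed between lungs more than between groups. H4c4 was measured at 70.1, 89.6 and 53 CPM in room-air females, 71.1, 58.1 and 66 in exposed females, 59.8, 63.1 and 55.2 in room-air males and 82, 42.3 and 62 in exposed males. Its 4 groups overlapped, and it was lowest in hyperoxia-exposed male 2 and highest in room-air female 5. H4c8 was measured at 21.1, 24.6 and 16.6 CPM in room-air females, 18.9, 14.4 and 20.5 in exposed females, 14.2, 17.7 and 14.9 in room-air males and 18.8, 8.49 and 15 in exposed males, with the same lungs at the bottom and the top. H1f2, a linker histone of the chromosome 13 cluster, had 48.4, 55.5 and 27.6 CPM in room-air females, 59, 37.2 and 48.8 in exposed females, 40.6, 40.5 and 36.4 in room-air males and 57.1, 33.1 and 39.2 in exposed males. H1f0, the linker histone of resting cells, had 72.7, 79.5 and 43.5 CPM in room-air females, 65.6, 48.7 and 52.3 in exposed females, 52.7, 64.2 and 55.1 in room-air males and 95.2, 44.5 and 65.8 in exposed males, with the highest value in hyperoxia-exposed male 1 and the lowest in room-air female 6. In each of these 4 genes the range within the 3 room-air females and within the 3 hyperoxia-exposed males was wider than the difference between any pair of group means.
H3c6 was at 19, 19.8 and 11.8 CPM in room-air females, 15.7, 17.4 and 19.7 in exposed females, 16.6, 17.9 and 11.6 in room-air males and 19.3, 10.1 and 15.9 in exposed males and overlapped in all groups. Among the less abundant leaders, H2bc8 was at 8.94, 7.57 and 6.32 CPM in room-air females, 8.31, 4.44 and 7.05 in exposed females, 4.98, 6.43 and 4.98 in room-air males and 7.09, 2.5 and 5.46 in exposed males. H2bc15, which shares its protein with H2bc7, H2bc11 and H2bc13, was at 6.77, 5.22 and 3.79 CPM in room-air females, 2.54, 3.55 and 5.59 in exposed females, 4.57, 5.04 and 3.45 in room-air males and 4.06, 3.48 and 2.51 in exposed males. In both genes room-air female 2 was the highest lung, and H2bc8 was lowest in hyperoxia-exposed male 2. H2ac15 had 2.17, 1.46 and 1.74 CPM in room-air females, 2.36, 1.68 and 3.7 in exposed females, 2.66, 2.35 and 1.12 in room-air males and 2.22, 1.63 and 1.4 in exposed males. H2ac4 had 2.91, 2.8 and 0.632 CPM in room-air females, 1.49, 1.87 and 2.23 in exposed females, 1.91, 1.91 and 1.28 in room-air males and 1.4, 0.218 and 1.77 in exposed males. These values rest on a median of 25 and 20.5 reads per lung, so that 1 lung at 2 reads (H2ac4, hyperoxia-exposed male 2) sets the low end.

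The first comparison asked what hyperoxia in the first days of life had left in these genes on PND 21, over both sexes. No histone gene passed the test. The fit (edgeR quasi-likelihood test over 45828 genes, with a gene called where its p after Benjamini-Hochberg adjustment was under 0.05 and its fold over 1.5) could be made for 56 of the 68 genes, 49 of them cluster genes, and called 0 of the 56, against 0.0415% of all genes tested (19 genes). DESeq2 called 0 of them as well. Below an unadjusted p of 0.05 lay 6 of 56 (10.7%), all lower after hyperoxia (H3c3, H3c11, H1f5, H3c1, H2bc11 and H2bc13), against 2.52% of all genes in that direction, and 0 were higher, against 2.67%. The exposed and the room-air lungs were apart in 0 of 56, against 0.12% of all genes lower and 0.0938% higher. The smallest adjusted p among them was 0.522, for H3c3.

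The direction differed between classes. Of the 49 cluster genes tested, 36 had a log2 fold change below 0, and of all 56 genes 36 (64.3%), against 44% of all genes tested, and the median was -0.17 against 0.03 for all genes. That median was -0.23 to -0.09 with single lungs left out, at the upper end without room-air male 1 or hyperoxia-exposed female 2, and it was -0.09 with the share of background reads as a covariate and -0.08 without room-air male 1 and hyperoxia-exposed male 2 together. All 12 H4 genes lay below 0, between -0.43 and -0.01 with a median of -0.23 (also with TMM, DESeq2 and RUVr, but 9 of 12 with background reads subtracted, with the share of such reads as a covariate, or without room-air female 5 or hyperoxia-exposed male 2), and so did 8 of 10 H3 genes (median -0.30) and 9 of 13 H2B cluster genes (median -0.23). The H2A cluster genes were divided, with 5 of 9 below 0 and a median of -0.06, and among the 5 linker histones of the clusters 3 lay above 0 (median 0.10). The 7 genes that are not S-phase genes lay above 0, from 0.01 in H1f0 to 0.24 in H1f10, with 1 of 7 below 0 in DESeq2. These are counts of signs over genes that share sequence and lungs and not of changes that passed a test.

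H3c3 had the largest negative difference, with 8.26, 10.5 and 8.14 CPM in room-air females, 5.86, 7.89 and 8.94 in exposed females, 9.38, 7.91 and 5.22 in room-air males and 4.73, 3.92 and 2.81 in exposed males. Its log2 fold change was -0.61 ± 0.17 (SE), with a 95% interval from -0.95 to -0.27 and an adjusted p of 0.522 (edgeR). The 3 hyperoxia-exposed males were the 3 lowest lungs, whereas hyperoxia-exposed females overlapped with both room-air groups. With 1 or 2 factors of unwanted variation estimated from the residuals (RUVr), a step the study's own methods include, the value was about the same (-0.61 and -0.60) but its adjusted p was 0.0047 and 0.00139, in fits that called 92 and 110 of all genes, so that the call depended on this step. H3c3 encodes the same H3 protein as H3c6, whose log2 fold change was 0.02 ± 0.14 (SE).

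The other large negative differences were in genes of few reads, apart from H3c11 and H1f5. H2bc11 had 2.98, 1.78 and 1.5 CPM in room-air females, 2.19, 1.68 and 2.23 in exposed females, 2.91, 2.17 and 1.69 in room-air males and 1.4, 0.98 and 0.665 in exposed males and a log2 fold change of -0.59 ± 0.26 (SE) (adjusted p = 0.927, edgeR). H2ac8 had 2.64, 1.53 and 1.58 CPM in room-air females, 1.66, 1.18 and 1.89 in exposed females, 2.41, 1.74 and 1.2 in room-air males and 1.18, 1.31 and 0.517 in exposed males and -0.56 ± 0.28 (SE) on the same scale. The 3 hyperoxia-exposed males were the 3 lowest lungs in H2bc11, while in H2ac8 room-air male 5 lay among the exposed ones. With background reads subtracted the values were -0.98 in H2bc11 and -1.22 in H2ac8, where the reads expected from background were 29.5 and 52.9% of the counts, and H2bc11 was at -0.38 with the replicate block. H2bc13 had 2.84, 2.04 and 1.9 CPM in room-air females, 1.84, 1.28 and 1.37 in exposed females, 1.99, 1.91 and 1.37 in room-air males and 1.03, 1.85 and 0.886 in exposed males (log2 fold change -0.56 ± 0.26 SE). H2bc12 had 2.51, 1.84 and 1.11 CPM in room-air females, 1.05, 1.38 and 2.32 in exposed females, 1.74, 2.52 and 2.49 in room-air males and 1.18, 1.74 and 0.812 in exposed males (-0.55 ± 0.28 SE). H3c11, the second most abundant H3 gene per length, had 7.45, 7.7 and 5.21 CPM in room-air females, 4.99, 6.21 and 5.84 in exposed females, 5.98, 6.87 and 4.34 in room-air males and 4.14, 2.72 and 3.18 in exposed males and a log2 fold change of -0.51 ± 0.17 (SE) (adjusted p = 0.852, edgeR). Its hyperoxia-exposed males were again the 3 lowest lungs of all. The adjusted p with 1 and 2 RUVr factors was 0.0181 and 0.0142, with a fold change that stayed under 1.5.

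The largest positive differences were smaller, and none had an adjusted p under 0.05 (edgeR). H2ac20 had 1.22, 1.4 and 0.395 CPM in room-air females, 1.4, 1.08 and 1.72 in exposed females, 1.49, 0.956 and 0.723 in room-air males and 1.18, 0.762 and 1.55 in exposed males and a log2 fold change of 0.31 ± 0.32 (SE). Hist1h2bp had 1.22, 0.763 and 1.82 CPM in room-air females, 1.84, 1.48 and 1.63 in exposed females, 2.41, 0.435 and 1.93 in room-air males and 1.18, 2.39 and 1.99 in exposed males (0.30 ± 0.31 SE). The groups overlapped in both, with room-air male 4 far below the others in Hist1h2bp. H1f1, a linker histone, had 3.52, 4.77 and 3 CPM in room-air females, 3.67, 3.75 and 7.39 in exposed females, 4.98, 3.04 and 4.66 in room-air males and 4.65, 4.9 and 4.28 in exposed males (0.25 ± 0.20 SE). Hyperoxia-exposed female 5 lay above the other lungs in it. H1f10, a linker histone not tied to S phase, had 3.79, 3.18 and 2.69 CPM in room-air females, 4.9, 2.47 and 2.66 in exposed females, 3.07, 2.26 and 2.01 in room-air males and 3.18, 3.16 and 3.47 in exposed males (0.24 ± 0.21 SE). H2bc21, an H2B gene also known to be transcribed in non-dividing cells, had 8.94, 9.54 and 8.45 CPM in room-air females, 10.4, 9.17 and 8.77 in exposed females, 7.97, 9.3 and 7.63 in room-air males and 10.4, 11.1 and 9.75 in exposed males (0.20 ± 0.12 SE). Its values ran only from 7.63 to 11.1 CPM over the 12 lungs, and its 3 hyperoxia-exposed males lay above the 3 room-air males. Without a single lung these values shrank to 0.14 in H2ac20 (without room-air female 6), 0.08 in Hist1h2bp (without room-air male 4), 0.05 in H1f1 (without hyperoxia-exposed female 5) and 0.05 in H1f10 (without hyperoxia-exposed female 2), while H2bc21 stayed between 0.16 and 0.25. The reads expected from background were 52.7% of the counts in H2ac20, 53.9% in Hist1h2bp, 46.8% in H1f10, 33.6% in H2bc21 and 20.1% in H1f1, and with them subtracted the values were 0.507 in H2ac20, 0.495 in H1f10, 0.336 in H2bc21, 0.385 in H1f1 and 0.362 in Hist1h2bp. H2ac20 was at 0.059 with the replicate block and Hist1h2bp at 0.064 with the share of background reads as a covariate. For the most abundant genes the log2 fold changes were -0.03 ± 0.15 (SE) in H4c4 (95% interval -0.34 to 0.28), 0.14 ± 0.15 (SE) in H1f2 (0.02 without hyperoxia-exposed male 1 or without room-air female 6, and 0.31 with that covariate) and 0.01 ± 0.16 (SE) in H1f0 (-0.32 to 0.35), so that a difference of 1.5-fold in either direction lay outside the intervals of H4c4 and H1f0.

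**Figure D3:**
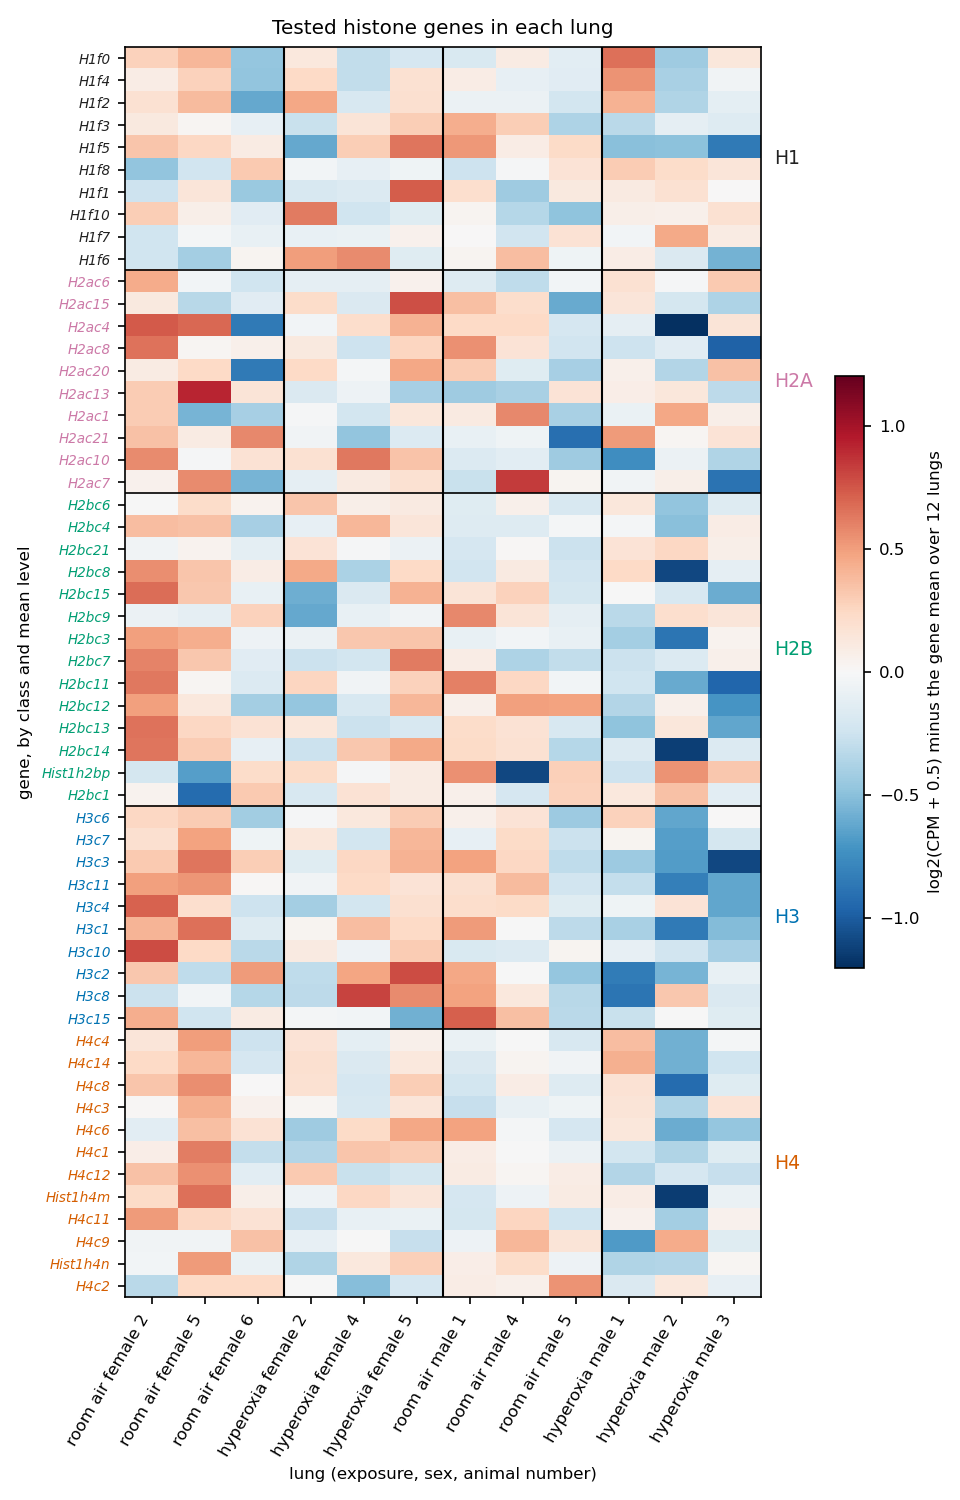
Levels of the 56 tested histone genes (rows, by class and mean level) in the 12 lungs (columns, by group), as log2 of CPM plus 0.5 minus the mean of that gene over the 12 lungs, with blue for low and red for high. H3c3, H3c11 and H2bc11 are lowest in the last 3 columns, the hyperoxia-exposed males, and room-air females 2 and 5 are red in most H2B, H3 and H4 rows.

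Each sex was also compared on its own. In females, 0 of 56 genes were called (edgeR and DESeq2), against 0.00218% of all genes (1 gene). With 1 and 2 RUVr factors 0 histone genes were called again, against 1902 and 1925 of all genes, and with single lungs left out 0 to 206 of all genes were called. At an unadjusted p under 0.05 lay 1 gene lower (1.79%, H2ac13, against 5.28%) and 0 higher (against 7.32%). Below 0 lay 36 of 56 (64.3%, against 39%), with a median log2 fold change of -0.12 against 0.11 for all genes. The median of the histone genes turned to 0.03 with background reads subtracted and to 0.04 with the background share as a covariate. The median of all genes in females was 0.02 with DESeq2 and 0.00 with that covariate, so the offset of the whole table depended on the fit. The 12 H4 genes again lay below 0, also with TMM, DESeq2 and RUVr, but 6 of 12 did so with background reads subtracted and 5 of 12 with the covariate. The 3 exposed lungs lay below the 3 room-air lungs in 4 genes (7.14%, H2ac21, H2bc13, H2ac13 and H4c11), against 6.42% of all genes, and above them in 0, against 10.8%.

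In males, 0 of 56 genes were called as well (edgeR and DESeq2), against 0% of all genes. At an unadjusted p under 0.05 lay 8 lower (14.3%, against 1.8% of all genes) and 0 higher (against 0.899%). Below 0 lay 38 of 56 (67.9%, against 52%), among them all 10 H3 genes (9 of 10 with TMM or DESeq2 and without room-air male 1 or 4 or hyperoxia-exposed male 2), with a median of -0.23 against -0.01 for all genes. This median was -0.13 without hyperoxia-exposed male 2, -0.08 without that lung and room-air male 1 together, and -0.36 with background reads subtracted. The 2 sets of 3 lungs did not overlap in 12 genes, 8 of them lower after hyperoxia (14.3%, against 3.89%) and 4 higher (7.14%, H2ac21, H2bc21, H1f10 and H2ac6, against 2.73%). The 8 lower ones were H3c1, H3c3, H3c11, H1f5, H2bc11, H2bc12, H4c1 and H4c12. H1f5, a linker histone of the same cluster, was singled out after its values were seen, as was H3c1. H1f5 had 7.52, 7.06 and 6.32 CPM in room-air females, 3.67, 7.3 and 9.45 in exposed females, 8.63, 6.26 and 6.99 in room-air males and 3.99, 4.03 and 3.03 in exposed males and a log2 fold change of -0.99 ± 0.26 (SE) in males and -0.04 ± 0.25 (SE) in females. Its 3 hyperoxia-exposed males were at 3.03 to 4.03 CPM, below every room-air lung, and exposed female 2 (3.67 CPM) lay among them. In males the log2 fold changes were -0.97 ± 0.25 (SE) for H3c3, -1.14 ± 0.38 (SE) for H2bc11, -0.76 ± 0.25 (SE) for H3c11 and -0.76 ± 0.29 (SE) for H3c1, and the adjusted p was 1 for each (edgeR). In females they were -0.25 ± 0.23 (SE), -0.04 ± 0.35 (SE), -0.26 ± 0.23 (SE) and -0.14 ± 0.27 (SE). With RUVr, H3c3 was called in males (adjusted p = 0.0349 with 1 factor and 0.00639 with 2), and H1f5 with 2 factors only (adjusted p = 0.025), in fits that called 16 and 63 of all genes.

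**Figure D4:**
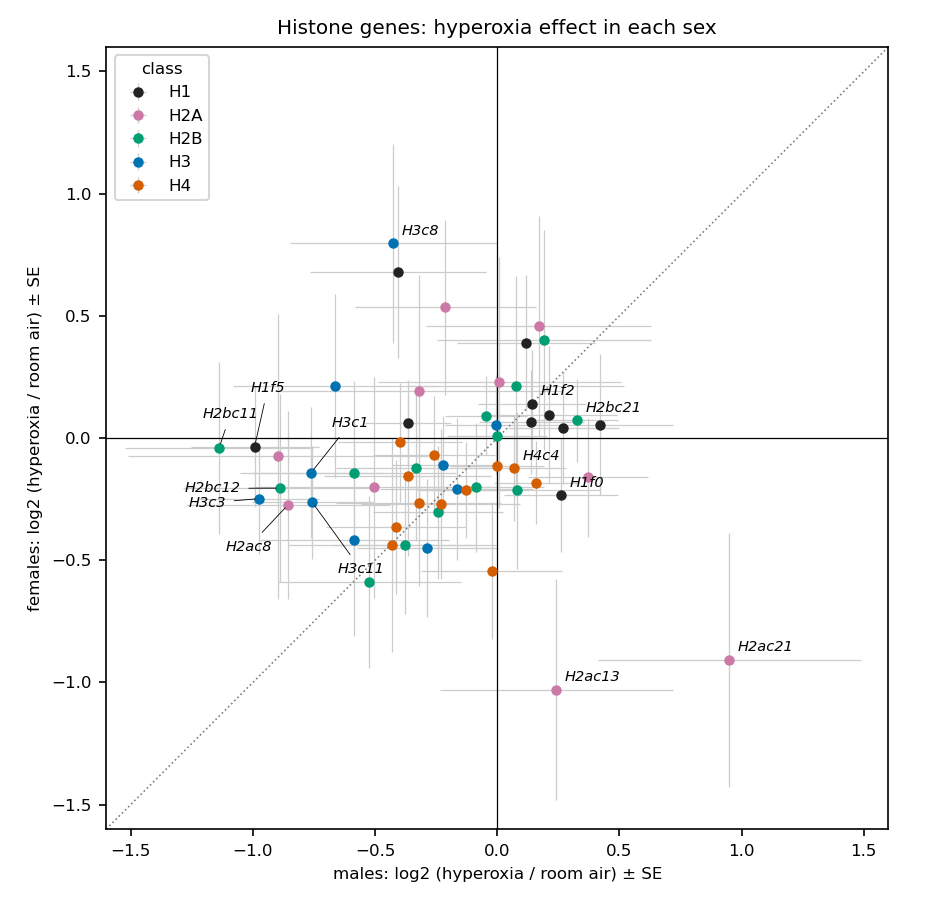
Log2 fold change after hyperoxia in females (y axis) against males (x axis) for the 56 tested histone genes, with SE bars, coloured by class. The dotted line marks equal values. H3c3, H1f5, H2bc11, H3c11 and H3c1 lie between -1.14 and -0.76 in males and between -0.26 and -0.04 in females, and H2ac21 lies at 0.95 in males and -0.91 in females.

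Whether hyperoxia acted differently in the sexes was tested with the interaction term, the female minus the male effect. It called 0 of 56 genes (edgeR and DESeq2), against 0% of all genes. At an unadjusted p under 0.05 lay 5 genes above 0 (8.93%, H1f5, H2bc11, H3c8, H1f6 and H3c3, against 6.06%) and 1 below (1.79%, H2ac21, against 2.4%), so the share was near that of all genes. The log2 difference was 0.96 ± 0.36 (SE) for H1f5, 0.73 ± 0.33 (SE) for H3c3 and 1.10 ± 0.52 (SE) for H2bc11, each with an adjusted p of 0.578 (edgeR). Below 0 lay 24 of 56 (42.9%, against 41.4%). Only H1f5 was called with RUVr, with 1 factor (adjusted p = 0.0406) and with 2 (adjusted p = 0.0337), in fits that called 2101 and 2184 of all 45828 genes. The larger negative differences of these few genes in males are therefore a description of these lungs and not a tested difference between the sexes.

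Over both exposures, most histone genes had higher values in female than in male lungs, though none passed the main test. Of the 56 genes, 12 (21.4%) lay below 0, against 56.7% of all genes, and 44 above. The median log2 difference, female minus male, was 0.18 against -0.03 for all genes, and 0.15 to 0.29 with single lungs left out, the highest without hyperoxia-exposed male 1. It was 0.39 in H3, 0.28 in H2B, 0.20 in H4, 0.19 in H2A and 0.07 in the H1 cluster genes. In H3, 9 of 10 lay above 0, and 9 or 10 of 10 did so under TMM, DESeq2, RUVr, background subtraction and the covariate alike. At an unadjusted p under 0.05 lay 12 genes higher in females (21.4%, against 4.05%) and 0 lower (against 2.83%). Of these 12, 6 were H3 genes (H3c1, H3c2, H3c3, H3c7, H3c10 and H3c11). The main fit called 0 of 56, against 1.22% of all genes, while DESeq2 called 1. That gene was H3c3, with a log2 difference of 0.62 ± 0.17 (SE) and an adjusted p of 0.0587 (edgeR), and its adjusted p was 0.0422 in DESeq2, 0.0297 with TMM normalization and between 0.00046 and 0.0238 with RUVr, without the filter on low counts or with the receptor share as a covariate. Its female lungs lay at 5.86 to 10.5 CPM and its males at 2.81 to 9.38, with the 3 exposed males the lowest. H3c11 (0.50 ± 0.17 SE) and H3c1 (0.58 ± 0.20 SE) had adjusted p of 0.244 and 0.254 (edgeR). H2ac10, named after its values were seen, had the largest difference of the 56 (1.09 ± 0.37 SE, adjusted p = 0.249, edgeR), on a median of 8.5 reads per lung with 63.4% of its counts expected from background. H4c8 differed by 0.37 ± 0.14 (SE) (adjusted p = 0.396, edgeR) and H2bc8 by 0.42 ± 0.19 (SE) (adjusted p = 0.637). H1f0 (-0.06 ± 0.16 SE) and H2bc21 (-0.01 ± 0.12 SE) were near 0.

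Summed over their class, the cluster genes came to 294 to 507 CPM per lung. Of the reads counted, H4 made up the largest part, with a mean of 148 CPM, ahead of H1 (123), H2B (61), H3 (55.7) and H2A (15.5). The median share of unique windows ran from 98.88% in H1 to 21.1% in H2A. This order may therefore differ from that of the mRNA amounts. The sum of all cluster genes was 437 ± 85.1 CPM (SD, n = 3) in room-air females, 421 ± 39.6 in hyperoxia-exposed females, 387 ± 33.8 in room-air males and 367 ± 76.8 in hyperoxia-exposed males. The SD in room-air females and in hyperoxia-exposed males was larger than the difference between any pair of these means. In the other groups it was smaller than the largest such difference. In H3 the means were 63.8 ± 12.2, 59.8 ± 8.12, 55.8 ± 11.2 and 43.3 ± 6.96 CPM in the same order. The 4 genes of the second H3 protein (H3c1, H3c8, H3c10 and H3c11) together had 12.1, 19.3 and 19.4 CPM in room-air females, 13.4, 16.9 and 17.5 in exposed females, 11.6, 15.1 and 16.8 in room-air males and 9.23, 9.25 and 10.3 in hyperoxia-exposed males. In this sum the hyperoxia-exposed males were the 3 lowest lungs and did not overlap with any other group, but no share over all genes stands beside it. Taken singly, H3c8 and H3c10 overlapped. H3c8 had 0.665, 2.18 and 1.4 CPM in exposed males and 2.49, 1.83 and 1.2 in room-air males. The 6 tested genes of the first H3 protein had 27.6, 33 and 40.4 CPM in hyperoxia-exposed males and 31.3, 45.9 and 46.7 in room-air males, which overlap. In females they had 37.6, 50.9 and 52.2 CPM in room air and 38.6, 41.6 and 51.3 after hyperoxia. H3c3, with the largest negative difference of all, is among these genes.

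These sums moved with the receptor share, though both are taken from the same counts. Whether that share is a technical measure was not tested. The lung with the highest sum, room-air female 5 (507 CPM), had the smallest receptor share (0.453%) and the most counts, and the lung with the lowest, hyperoxia-exposed male 2 (294 CPM), had the largest share (1.04%) and the fewest counts. The order was not strict, as room-air male 1 and hyperoxia-exposed female 5, with shares of 0.996 and 0.936%, had 408 and 459 CPM. In a fit chosen after the values had been seen, each gene was given a slope on the log2 receptor share beside the 4 groups. The slope was below 0 at an adjusted p under 0.05 (edgeR) in 14 of 56 genes (25%), against 17.2% of all genes, and above 0 in 3 (5.36%), against 20%. The receptor genes whose counts make up the share were not left out of all genes. The 20% is therefore partly set by the measure itself and is no independent yardstick. The genes with slopes below 0 included H1f0 (-1.07 ± 0.12 SE per doubling), H4c4 (-0.83 ± 0.12), H4c14 (-0.84 ± 0.13), H1f2 (-0.92 ± 0.16) and H4c8 (-0.80 ± 0.16), the abundant genes with little background. H3c3, H1f5, H2bc11 and H3c1 were not among them. With the share as a covariate the median log2 fold change of the histone genes was 0.04 in females in place of -0.12, and the value of H3c3 over both sexes was -0.58 in place of -0.61. The receptor share was 0.453 to 0.819% in room-air females and 0.569 to 1.04% in the other 9 lungs.

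**Figure D5:**
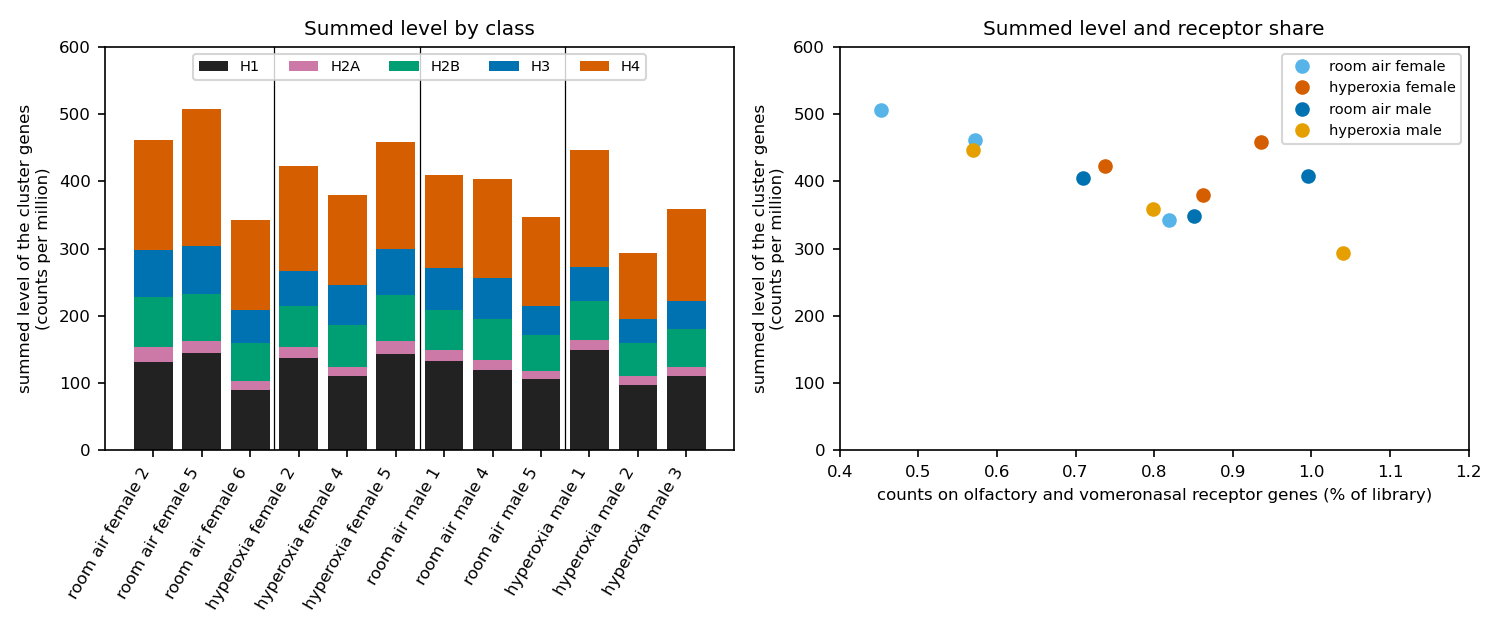
The left panel shows the summed level of the 61 cluster genes by class in each of the 12 lungs (stacked bars, CPM), and the right panel the same sum (y axis, CPM) against the share of counts on olfactory and vomeronasal receptor genes (x axis, percent), 1 point per lung, coloured by group. The sums run from 294 to 507 CPM and the groups overlap. Room-air female 5 has the highest sum and the smallest share, hyperoxia-exposed male 2 the lowest sum and the largest share.

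Among genes known to act with the histone genes, none in the lists below was called. Of 12 genes of histone mRNA processing, 0 were called in any of the 5 comparisons. Slbp, whose protein binds the stem-loop, had a log2 fold change of -0.05 ± 0.10 (SE) after hyperoxia in both sexes together, and Npat had 0.07 ± 0.13 (SE). Of 21 histone chaperones, which carry histones to DNA, 0 were called, with 18 of 21 below 0 against 44% of all genes and a median of -0.10, and by sex 18 of 21 in females (median -0.26) and 12 of 21 in males (-0.02). Of 30 S-phase genes, 18 lay below 0 (median -0.05) and 0 were called, with -0.10 ± 0.10 (SE) for Mcm2, a subunit of the replicative helicase, and -0.24 ± 0.12 (SE) for Pcna, the sliding clamp. Of 23 genes of G2 and mitosis, 11 lay below 0 (median 0.00). Mki67, the usual proliferation marker, had -0.36 ± 0.13 (SE) (adjusted p = 0.927, edgeR) and Top2a had 0.00 ± 0.12 (SE). Nusap1, a spindle protein, was the one gene in these lists with an adjusted p under 0.05 for hyperoxia in both sexes (0.0196, edgeR), at -0.57 ± 0.10 (SE), just short of the 1.5-fold limit. Between the sexes, Pola1, an X-linked gene for a DNA polymerase subunit, was higher in females by 0.56 ± 0.10 SE (adjusted p = 0.00133, edgeR), also under 1.5-fold. In males 21 of 23 G2 and mitosis genes and 19 of 30 S-phase genes lay below 0, in females 5 of 23 and 16 of 30, with 0 called in either (edgeR), while of all genes 52% lay below 0 in males and 39% in females.

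Histones that replace the S-phase forms outside replication are encoded by ordinary genes with polyadenylated mRNA. Of 9 such genes tested, 8 lay below 0 (median -0.07), against 44% of all genes, and 0 were called. By sex, 8 of 9 lay below 0 in females (median -0.33), against 39% of all genes. In males 3 of 9 did so (median 0.03), against 52%. H3f3a and H3f3b, which encode the same replacement H3, had 17.8 and 49.1 RPKM and log2 fold changes of -0.35 ± 0.14 (SE) and -0.13 ± 0.17 (SE). H2az1 (the former H2afz) had 4.21 RPKM and -0.08 ± 0.14 (SE). In counted reads per length, H3f3b thus stood above every S-phase H3 gene. Shared sequence limits the counts of those genes, as only 26.56% of the windows of H3c6 were unique.

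Of the marker lists of other cell types, that of erythroid cells held genes called between the exposures. Of their 9 markers tested, 8 lay below 0 after hyperoxia, those called lower included Hba-a2, Hbb-bt and Alas2, and the summed level was 5300 to 8210 CPM in room air against 1330 to 4850 after hyperoxia, with none of the 9 at 0 in any lung. Markers of B cells summed to 177 to 287 CPM in room air and 165 to 219 after hyperoxia, those of T cells to 82.6 to 98.2 and 77.5 to 97.4, those of thymocytes to 20.7 to 40.4 and 22 to 43.4, those of neutrophils and their precursors to 51.7 to 86.4 and 54.9 to 81.7, those of alveolar macrophages to 140 to 364 and 189 to 328, and those of spermatids to 11.4 to 20.9 and 13.1 to 19.6, again with none at 0 in all lungs and 0 called. The spermatid list was at 11.4 to 16.2 CPM in room-air female lungs too, and lowest in room-air female 5, the lung with the smallest receptor share, so it does not show that such cells were present. What part the cells of these lists had in the histone values was not tested.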

How the data were processed

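Total RNA of 12 whole lungs was sequenced. The authors trimmed reads with Trim Galore, used STAR for alignment to mm10 and featureCounts for counting, and they deposited 1 table of raw counts per gene and lung (versions, the annotation release, the strand setting and the treatment of reads with several positions are not given in the sources used here). The library kit is named differently in the labels and in the methods. Depth was 8763033 to 16741694 counts (median 11942546). P-values measure the spread between lungs, and floors of 3 counts cover counting error only.

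The 4 groups came from the labels. Genes were kept with filterByExpr (45828 genes), scaled by the upper quartile and fitted with 1 mean per group in edgeR 4.0.16 (robust quasi-likelihood F test, R 4.3.3), with Benjamini-Hochberg adjustment over all genes. Standard errors were derived from the F statistic. CPM and RPKM were computed from the counts with exon lengths of GENCODE M21, and promoters came from RefSeq. The fits were tested on simulated data. Alternatives were TMM, DESeq2 1.42.0, RUVr, other filters, background subtraction, the receptor share as a covariate, single lungs left out and a replicate block.

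Genes named by rule were the 2 most abundant per class and length, and the 5 largest positive and 5 largest negative differences among genes with a mean of at least 10 counts. The histone genes, the other gene lists and the rules were chosen with earlier results of these data known.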

Additional observations from a re-analysis of the deposited data

How the results depend on the processing

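The count of called histone genes was 0 in females under every alternative. In the comparison of females with males it was 1 with TMM, DESeq2, RUVr with 1 factor, no filter on low counts, and without room-air male 1 and hyperoxia-exposed male 2 together (chosen after seeing the data), 2 with RUVr with 2 factors and with a receptor-share covariate, and 0 to 1 with single lungs left out. H3c3 was called in each fit that called any gene, with H3c1 or H3c2 where there were 2, and its adjusted p was 0.0135 to 0.0491 (edgeR) in the 5 fits that called it without room-air male 1, room-air female 6, hyperoxia-exposed male 1, hyperoxia-exposed male 2 or hyperoxia-exposed female 2. With 1 and 2 RUVr factors the count was 1 and 1 for hyperoxia in both sexes, 1 and 2 in males and 1 and 1 for the interaction. The median log2 change of the histone genes in females was 0.028 after background subtraction, 0.042 with that covariate and -0.274 to -0.007 with single lungs left out, where -0.274 came without room-air female 6. For the interaction (0.087 in the reported fit) it was 0.308 and 0.372 under the first 2 of these, -0.025 with DESeq2 and -0.008 without room-air male 1 and hyperoxia-exposed male 2 together, and in males -0.078 without room-air male 1 and hyperoxia-exposed male 2 together. The cause was not tested.

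Of the genes named by rule, 5 changed sign over both sexes. H1f0 was 0 with TMM, -0.025 with DESeq2, -0.001 without the filter and -0.141 to 0.131 with single lungs left out. H3c6 was -0.019 with DESeq2, -0.02 with the replicate block and -0.081 to 0.129 with single lungs left out. H4c4 was 0.002 with at least 10 counts in every lung, 0.048 after background subtraction, 0.123 with the covariate, 0.014 with the block, 0.084 without both lungs and -0.152 to 0.08 with single lungs left out. H2bc8 was 0.001 with the covariate, 0.095 with the block and -0.301 to 0.003 with single lungs left out, and H2ac15 -0.014 to 0.281.

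The count of all genes called, for both sexes, females, males, interaction and sex in this order, was 92, 1902, 16, 2101 and 1006 with 1 RUVr factor and 110, 1925, 63, 2184 and 1037 with 2, against 19, 1, 0, 0 and 559. For both sexes it was 40 with DESeq2, 10 after background subtraction and 3 to 37 with single lungs left out. In females it was 0 with TMM and after background subtraction, 44 with DESeq2, 8 without the filter, 22 with the covariate, 80 in a fit of the 6 female lungs alone, 117 without both lungs and 0 to 206 with single lungs left out. In males it was 6 with the covariate and 2 in their 6 lungs alone, and for sex it was 1004 without the filter, 266 with at least 10 counts and 976 with the covariate. Animal numbers were shared between exposures by 6 lungs, but the correlations of their deviations (0.174, -0.324 and -0.485) do not show that the numbers pair the lungs. The replicate block on these 6 lungs called 0 histone genes, with a median of -0.195 over both sexes and -0.183 in females, and 2 and 476 of all genes. Too few counts left 12 of the 68 genes untested, and 41 were testable with at least 10 counts in every lung.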

Other observations

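A few other histone genes carry names that the rule does not take in. H4f16, an H4 gene, had 14.4 ± 2.11 CPM (SD, n = 3) in room-air females, 14.2 ± 2.49 in hyperoxia-exposed females, 14.8 ± 0.326 in room-air males and 15.7 ± 2.88 in hyperoxia-exposed males. Its log2 fold change over both sexes was 0.03 ± 0.12 (SE, adjusted p = 0.975, edgeR). The 12 H4 genes described above lay between -0.43 and -0.01 in the main fit, and not all of them below 0 under every alternative. The difference between H4f16 and these genes was not tested. H2aw and H2bu2, an H2A and an H2B gene, had log2 fold changes of 0.06 ± 0.17 and 0.02 ± 0.27 (SE). None of the 3 was called.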
